A study of Mus musculus with 6 samples.

Results

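The genes described here were 10 integrin subunits and leukocyte adhesion molecules: the integrin chains Itgal, Itgax, Itgb2, Itga4, Itga5, Itgav, Itgb1 and Itgb3, the ligand Icam1 and the hyaluronan receptor Cd44. They were taken by their GENCODE M21 symbols from the 54532 mouse genes listed in each library. RNA-seq was available for 6 libraries of iBMDMs, a macrophage line made from bone marrow cells of WT mice with retroviruses that carry v-raf and v-myc. The 3 control libraries came from cells with a control shRNA and the 3 PGAM5 KD libraries from cells with an shRNA against PGAM5, a phosphatase of the mitochondrial outer membrane. All 6 libraries came from cells treated with LPS, the bacterial ligand of TLR4, at 100 ng/ml for 4 hours. The comparison therefore asks how adhesion gene mRNA differed between knockdown and control cells after LPS, and no induction by LPS was measured.

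Integrins are cell surface receptors made of 1 alpha and 1 beta chain that bind matrix proteins or counter-receptors on other cells. In macrophages the β2 chain (Itgb2, CD18) pairs with αL (Itgal, CD11a) to form LFA-1, which binds ICAM-1, and with αM or αX. The β1 chain (Itgb1) pairs with α4 (Itga4), which binds VCAM-1 and fibronectin, and with α5 (Itga5), the classical fibronectin receptor. The αV chain (Itgav) pairs with β1, β3 or β5 and binds vitronectin and osteopontin. Icam1 is a known NF-κB target, and CD44 binds hyaluronan and osteopontin.

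Expression is given as FPKM, fragments scaled to exon length and library depth, which allows levels of different genes to be compared. Recovered depths were 18165599 to 20178811 fragments in control and 18163463 to 24388917 fragments in PGAM5 KD libraries. Pgam5 was at 17.1, 12.97 and 13.4 FPKM in control and 4.33, 5.75 and 4.53 FPKM in PGAM5 KD libraries, with no overlap (log2 fold change -1.40, SE 0.13, limma adjusted p = 0.000358). Of the 10540 genes whose mean over the 6 libraries was 1 FPKM or more, 31.7% passed an adjusted p of 0.05 with limma, 16.8% higher and 14.9% lower in PGAM5 KD, and 1.32% also had an absolute log2 fold change above 1. Higher genes were 52.9% of these calls, and 32.3% when FPKM was scaled to TPM and the 12631 genes at a mean of 1 TPM or more were tested. The libraries carried macrophage markers (9 of 12 at a mean of 1 FPKM or more, led by Lyz2, with Mertk at 0). Their summed level was 3215 to 3291 FPKM in control and 2912 to 2951 FPKM in PGAM5 KD libraries, a sum led by Lyz2. The 9 did not move together, since 3 were lower (Lyz2, Cd68 and Csf1r), 4 higher (Cd14, Adgre1, Fcgr1 and Itgam) and 2 did not pass (limma, adjusted p under 0.05). The part of these differences in the adhesion results was not tested. Of the markers of dendritic cells, platelets and fibroblasts none reached a mean of 1 FPKM (0 of 10 each), while 1 of 10 did for neutrophils (Csf3r), lymphocytes (Lck) and endothelial cells (Egfl7). The defining markers Flt3, Ly6g, Cd3e, Gp9 and Col3a1 were at 0 in every library. In bulk RNA, fewer cells of a type and less RNA per cell cannot be told apart. As each group carried its own shRNA, effects of the shRNA, of the infected line and of PGAM5 cannot be told apart either, and since the labels do not say whether replicates were separate cultures, p-values measure the spread between these libraries.

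The promoters of the 3 integrin genes that fell and of Icam1 are shown because these genes moved in opposite directions. Each is the 250 bases before the RefSeq start (GRCm38.p6), written 5′ to 3′ on the strand of the gene, with capitals marking the motifs searched on both strands. The motifs were the GC box GGGCGG, the PU.1 core GAGGAA, the κB-like letters GGAANTTCC and GGGNNTTCC, the AP-1 site TGANTCA and the TATA box TATAAA. The windows are chr2:79255176-79255425 (plus strand) for Itga4, chr15:103366792-103367041 (minus) for Itga5, chr2:83724147-83724396 (plus) for Itgav and chr9:21015690-21015939 (plus) for Icam1.
Itga4: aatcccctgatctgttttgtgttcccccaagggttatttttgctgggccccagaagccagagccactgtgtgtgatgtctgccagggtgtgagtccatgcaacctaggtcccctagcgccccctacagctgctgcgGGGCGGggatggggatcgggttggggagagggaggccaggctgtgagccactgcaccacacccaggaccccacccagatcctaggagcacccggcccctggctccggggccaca
Itga5: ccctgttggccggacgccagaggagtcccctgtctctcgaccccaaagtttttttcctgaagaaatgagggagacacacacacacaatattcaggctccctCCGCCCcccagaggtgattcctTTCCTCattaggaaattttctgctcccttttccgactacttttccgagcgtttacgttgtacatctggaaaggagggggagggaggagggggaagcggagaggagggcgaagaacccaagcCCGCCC
Itgav: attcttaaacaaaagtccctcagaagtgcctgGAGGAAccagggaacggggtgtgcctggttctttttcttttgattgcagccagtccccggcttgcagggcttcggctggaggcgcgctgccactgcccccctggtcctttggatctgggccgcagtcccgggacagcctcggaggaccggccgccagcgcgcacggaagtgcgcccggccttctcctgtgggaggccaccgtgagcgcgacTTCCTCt
Icam1: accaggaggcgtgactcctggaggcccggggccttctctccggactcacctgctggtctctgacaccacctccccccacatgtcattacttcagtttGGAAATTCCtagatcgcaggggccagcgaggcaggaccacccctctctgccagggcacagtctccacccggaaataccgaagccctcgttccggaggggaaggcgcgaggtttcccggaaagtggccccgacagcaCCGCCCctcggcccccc

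Positions count back from the RefSeq start, with the first base of the match given. The Icam1 window held GGAANTTCC at -153, letters found in 0.813% of 32851 mouse promoters of the same length, and a GC box at -17. The Itga4 window held a GC box at -114, and the Itga5 window held GC boxes at -149 and -6 with a PU.1 core at -127. The Itgav window held PU.1 cores at -218 and -7. GC boxes were in 32.7% and PU.1 cores in 23.3% of all promoters, so most of these matches are common letters. None of the 4 windows held GGGNNTTCC, TGANTCA or TATAAA, which were in 4.98%, 6.75% and 12.4% of all promoters. The Itgb1 window, not shown, held GGGNNTTCC at -164. A match describes the letters alone.

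The alpha chains α4, α5 and αV fell in PGAM5 KD cells, whereas β2 and Icam1 rose and β1, αL and Cd44 did not pass the test. Of the 10 genes, 8 passed the filter of a mean FPKM of 1 and were tested. Of those 8, 2 were higher and 3 lower (62.5% passed, against 31.7% of all genes), and 0 had an absolute log2 fold change above 1. All of the 8 but Itgal had control levels at percentile 79.1 or above. Among genes at a mean of 5 FPKM or more, 62.5% of the members and 2771 of 7092 genes passed. The share of the members was 37.5%, the 3 lower genes alone, with TPM, without control replicate 1 or without PGAM5 KD replicate 2. Over all genes, 3351 of 12631 passed with TPM, 2534 of 10540 without control replicate 1 and 2446 of 10540 without PGAM5 KD replicate 2. The 2 groups were fully apart for 7 of the 8, against 47.1% of all genes. In 4 of them the PGAM5 KD libraries were above (24.2% of all genes) and in 3 below (22.9%). The tested genes ran from -0.48 to 0.21 on the log2 scale, while the middle 50% of all genes lay between -0.14 and 0.16.

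**Figure D1:**
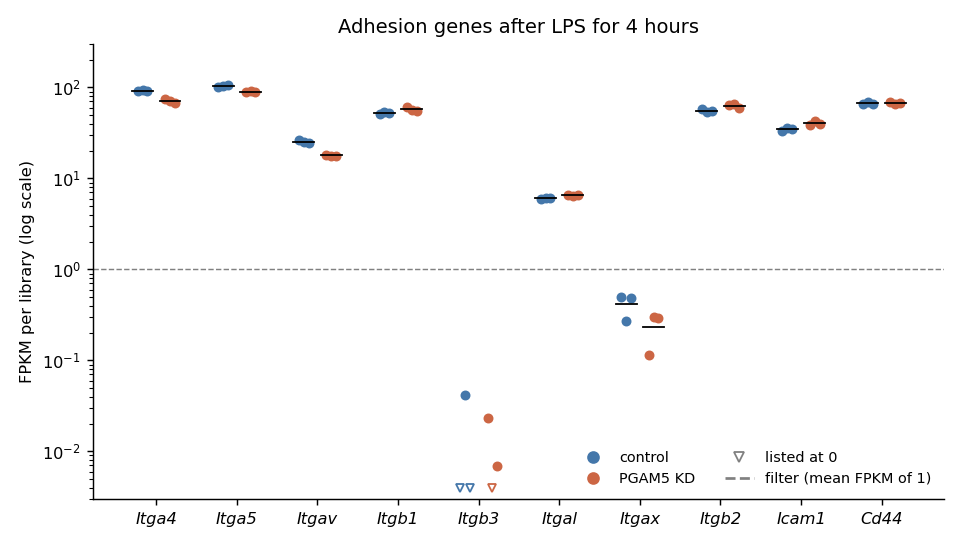
FPKM of the 10 adhesion genes in each library (log axis), with control libraries in blue, PGAM5 KD libraries in red, black bars at group means and open triangles for libraries listed at 0. Itga5 and Itga4 were the highest in both groups, and Itgax and Itgb3 lay below the dashed filter line at 1 FPKM.

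Itga4 (ENSMUSG00000027009, GRCm38 chr2:79255426-79333123, plus strand), which encodes α4, was at 90.7, 93.8 and 90.6 FPKM in control and 74.7, 70.5 and 67.3 FPKM in knockdown libraries. Each knockdown library lay below each control library. The mean fell by 22.8%, from 91.7 ± 1.81 to 70.8 ± 3.71 FPKM (SD, n = 3 each), a log2 fold change of -0.37 (SE 0.04, 95% interval -0.47 to -0.27, limma adjusted p = 0.00116). With a correction for exon length and GC content, added after the data were seen, the log2 fold change was -0.24, outside this interval. The counts behind each value were large, 17900 to 26454 fragments. The 13978 bases of Itga4 exon share 1124 bases with Cerkl on the other strand, which had at most 0.320 FPKM. Parts of the Itga4 transcripts also resemble Atf2 (85.2% identity over 377 bases, at most 9.04 FPKM).

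Itgav (ENSMUSG00000027087, chr2:83724397-83806916, plus strand), which encodes αV, had the largest difference of the tested genes. It was at 26.2, 25.1 and 24.5 FPKM in control and 18.0, 17.8 and 17.8 FPKM in PGAM5 KD libraries. The knockdown libraries lay close together and well under the controls. The mean fell by 29.4%, from 25.3 ± 0.857 to 17.8 ± 0.139 FPKM (SD, n = 3 each), with a log2 fold change of -0.48 (SE 0.04, 95% interval -0.57 to -0.39, limma adjusted p = 0.000247). Its 634 bases shared with the antisense transcript Gm13684 carry little signal, since that transcript had at most 0.0486 FPKM.

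Itga5 (ENSMUSG00000000555, chr15:103344286-103366763, minus strand), which encodes α5, was the most abundant of the 10 genes. It was at 102.2, 102.5 and 107.3 FPKM in control and 88.9, 91.6 and 89.1 FPKM in PGAM5 KD libraries, again without overlap. The mean fell by 13.6%, from 104 ± 2.85 to 89.9 ± 1.52 FPKM (SD, n = 3 each), with a log2 fold change of -0.21 (SE 0.03, 95% interval -0.29 to -0.13, limma adjusted p = 0.00389). All 3 alpha chains passed in each of 17 alternative analyses.

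Itgb1 (ENSMUSG00000025809, chr8:128685654-128733200, plus strand), the β1 partner of these chains, lay on the other side of 0. It was at 50.8, 53.6 and 52.7 FPKM in control and 61.4, 56.5 and 54.7 FPKM in PGAM5 KD libraries. All knockdown libraries were above all controls, but the difference did not pass over all genes (log2 fold change 0.13, SE 0.05, 95% interval 0.01 to 0.25, limma adjusted p = 0.0847). Of the 17 alternatives it passed in 1, voom weights on the recovered fragments (limma adjusted p = 0.0305). Over the alternatives its log2 fold change ran from 0.06 (TPM) to 0.17, and it was 0.08 without PGAM5 KD replicate 1.

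Itgb3 (ENSMUSG00000020689, chr11:104608000-104670476, plus strand), the β3 chain of osteoclasts and platelets, was close to undetected. It had 0, 5 and 0 fragments in control and 3, 0 and 1 fragments in PGAM5 KD libraries, where 3 fragments correspond to 0.0208 to 0.0280 FPKM. No fold change is given, because both groups were at or near this floor, which covers counting error only.

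**Figure D2:**
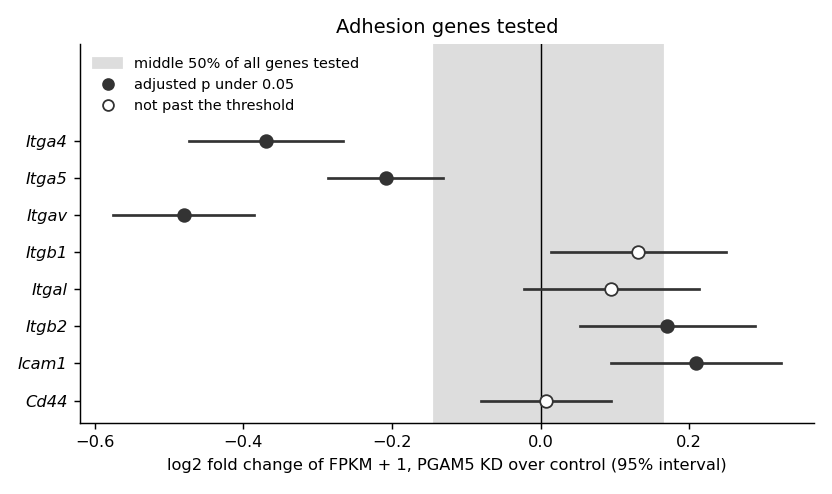
Log2 fold change of FPKM + 1 (PGAM5 KD over control) with the 95% interval from limma for the 8 genes tested, filled where the adjusted p was under 0.05, over the middle 50% of all genes tested in grey (-0.14 to 0.16). The centres of Itga4, Itga5 and Itgav lie left of the grey band, with the interval of Itga5 reaching into it, and the centre of Itgb1 lies within it.

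Because each ratio is formed within a library, alpha over beta ratios do not change with a scaling factor per library, but they are not corrected for exon length or GC content. Both genes reached a mean of 1 FPKM in 4 of the 8 pairs written, and p-values are exact two-sided permutation tests, whose smallest p with 3 against 3 libraries is 0.1. Itga4 over Itgb1 was 1.78, 1.75 and 1.72 in control and 1.22, 1.25 and 1.23 in PGAM5 KD libraries. This ratio had almost no spread within groups, 1.75 ± 0.0325 against 1.23 ± 0.0159 (SD, n = 3, log2 difference -0.51, SE 0.02, exact p = 0.1, 0.133 after Benjamini-Hochberg adjustment over the 4 pairs).

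Itgav over Itgb1 was 0.516, 0.469 and 0.465 in control and 0.293, 0.314 and 0.325 in PGAM5 KD libraries. It had the largest log2 difference of the 4 ratios, -0.64 (SE 0.07, exact p = 0.1, adjusted 0.133). Itga5 over Itgb1 was 2.01, 1.91 and 2.04 in control and 1.45, 1.62 and 1.63 in PGAM5 KD libraries, a log2 difference of -0.34 (SE 0.06, exact p = 0.1, adjusted 0.133). For these 3 ratios every knockdown library was below every control library, the most that 3 against 3 libraries can show. After a correction for exon length and GC content, added after the data were seen, the difference between the log2 fold changes of the subunits went from -0.50 to -0.33 for Itga4 over Itgb1, from -0.61 to -0.48 for Itgav and from -0.34 to -0.29 for Itga5 (log2(FPKM + 1) scale, no test).

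The 3 alpha chains together came to 219, 221 and 222 FPKM in control and 182, 180 and 174 FPKM in PGAM5 KD libraries, a ratio of 0.808 (exact permutation p = 0.1). Their summed level over that of Itgb1 was 4.22 ± 0.0910 in control and 3.11 ± 0.131 in PGAM5 KD (SD, n = 3 each). Within the sum, the share of Itga5 was 47.1% in control and 50.4% in PGAM5 KD, and that of Itgav was 11.4% and 10.0%, without overlap in either case (exact permutation p = 0.1 each). The share of Itga4 was 41.5% and 39.7%, and its libraries overlapped. These shares are of uncorrected FPKM. After the correction for exon length and GC content used for the exon length groups, the log2 fold change of Itga4 was -0.24 and that of Itga5 -0.20, against -0.37 and -0.21 without it.

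**Figure D3:**
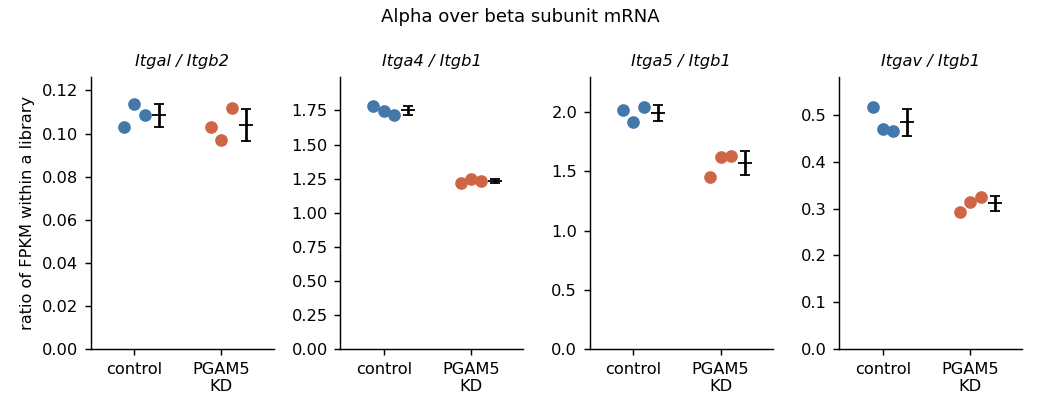
Ratio of alpha to beta subunit FPKM within each library for 4 pairs (linear axes from 0), with control libraries in blue, PGAM5 KD libraries in red and black marks for mean and SD (n = 3). The ratios over Itgb1 separate the groups, for example 1.75 against 1.23 for Itga4, whereas Itgal over Itgb2 overlaps at 0.108 and 0.104.

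Itgb2 (ENSMUSG00000000290, chr10:77530252-77565708, plus strand), the β2 chain shared by the leukocyte integrins, was at 57.6, 53.6 and 55.4 FPKM in control and 64.0, 65.2 and 58.7 FPKM in PGAM5 KD libraries. PGAM5 KD replicate 3 was only just above the highest control. The mean rose by 12.8%, from 55.5 ± 2.02 to 62.7 ± 3.45 FPKM (SD, n = 3 each), with a log2 fold change of 0.17 (SE 0.05, 95% interval 0.05 to 0.29, limma adjusted p = 0.0392). This call was lost in 11 of 17 alternatives, among them TPM (log2 fold change 0.09, limma adjusted p = 0.231). Those 11 included the fits without control replicate 1, 2 or 3 (limma adjusted p = 0.05004, 0.114 and 0.0971) and without PGAM5 KD replicate 1 or 2 (0.0938 and 0.116).

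Itgal (ENSMUSG00000030830, chr7:127296260-127335138, plus strand), the αL chain of LFA-1, was at 5.93, 6.09 and 6.03 FPKM in control and 6.59, 6.34 and 6.57 FPKM in PGAM5 KD libraries. The groups did not overlap, yet the difference did not pass (log2 fold change 0.10, SE 0.05, 95% interval -0.02 to 0.21, limma adjusted p = 0.191). The ratio of Itgal to Itgb2 was 0.108 ± 0.00534 in control and 0.104 ± 0.00738 in PGAM5 KD (SD, n = 3, log2 difference -0.06, SE 0.07, exact permutation p = 0.4). After the exon length and GC correction the difference was 0.04 (no test), so its sign is not fixed. The αL mRNA was thus much scarcer than β2 mRNA in both groups.

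Itgax (ENSMUSG00000030789, chr7:128129547-128150657, plus strand), which encodes αX (CD11c), a dendritic cell and inflammatory macrophage marker, lay below the filter. It was at 0.493, 0.268 and 0.491 FPKM in control and 0.114, 0.298 and 0.290 FPKM in PGAM5 KD libraries. These values rest on 43, 26 and 46 fragments in control and 12, 26 and 34 fragments in PGAM5 KD, and the groups overlap (exact permutation p = 0.3). The range within each group was as large as the difference between the group means.

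Icam1 (ENSMUSG00000037405, chr9:21015985-21028817, plus strand), the ligand of LFA-1 whose promoter held GGAANTTCC, was at 33.2, 36.1 and 35.2 FPKM in control and 38.9, 42.4 and 39.8 FPKM in PGAM5 KD libraries. Every knockdown library was above every control. The mean rose by 16.1%, from 34.8 ± 1.47 to 40.4 ± 1.81 FPKM (SD, n = 3 each), with a log2 fold change of 0.21 (SE 0.05, 95% interval 0.09 to 0.32, limma adjusted p = 0.0174). The call was lost with TPM (log2 fold change 0.13, limma adjusted p = 0.0765), without control replicate 1 (0.0518) and without PGAM5 KD replicate 2 (0.0537). The antisense gene Gm47079 shares 511 of its 4360 exon bases and had at most 0.313 FPKM.

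Cd44 (ENSMUSG00000005087, chr2:102811141-102901665, minus strand) was the least changed of the tested genes. It was at 66.0, 68.7 and 65.4 FPKM in control and 68.7, 64.9 and 67.7 FPKM in PGAM5 KD libraries, on 7987 to 11180 fragments. The groups overlapped (log2 fold change 0.01, SE 0.04, 95% interval -0.08 to 0.09, limma adjusted p = 0.896), and over the alternatives its value ran from -0.08 to 0.04.

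In control libraries the levels ran, from high to low, Itga5, Itga4, Cd44, Itgb2, Itgb1, Icam1, Itgav, Itgal, Itgax and Itgb3. Of these neighbours, Itgb2 and Itgb1 were the pair whose control libraries overlapped. The order was the same in PGAM5 KD, but there Itga4 overlapped Cd44, Cd44 overlapped Itgb2 and Itgb2 overlapped Itgb1. The level of Itga4 was 1.37 times that of Cd44 in control and 1.06 times in PGAM5 KD. Among the tested genes, control levels of Itga5 and Itga4 were at the 95.6th and 94.8th percentile, and that of Itgal at the 38.4th.

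Log2 fold changes over all genes went down with summed exon length. The median was 0.13 in the shortest of 5 equal groups of genes and -0.09 in the longest, which holds Itga4 and Itgav. Itga5, Itgal and Cd44 lie in the fourth group with a median of -0.03, and Itgb1 and Icam1 in the third with 0.03. Itgb2 lies in the second with 0.08. After a correction for exon length and GC content, added after the data were seen, Itga4 had a log2 fold change of -0.24, Itgav of -0.39 and Itga5 of -0.20, all past the threshold. Icam1 also passed after this correction (0.20, limma adjusted p = 0.0272), and Itgb2 did not (0.11, limma adjusted p = 0.157).

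**Figure D4:**
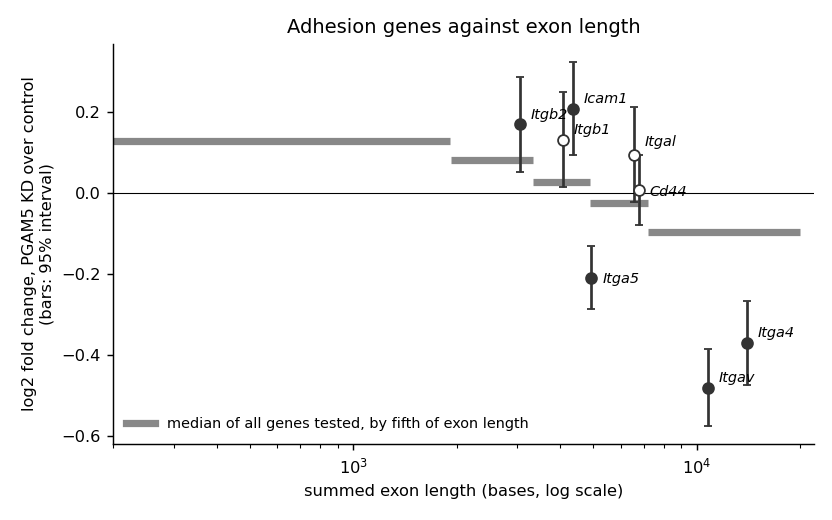
Log2 fold change (PGAM5 KD over control, with 95% interval) against summed exon length in bases (log axis) for the 8 tested adhesion genes, filled where the adjusted p was under 0.05, with grey bars at the median of all genes in 5 exon length groups. The grey bars go from 0.13 to -0.09, and Itga4, Itga5 and Itgav lie below the bar of their own length group.

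Itga4 and Itgav lie 4.39 Mb apart on chromosome 2. Of the 8 tested genes between them 2 were higher and 0 lower (limma, adjusted p under 0.05), against 16.8% and 14.9% of all genes. Their median log2 fold change was 0.15. The count lower was also 0 at an unadjusted p under 0.05 and with voom, but so few genes do not show a direction. Within 5 Mb of Itga5, 23 of 73 tested genes were lower and 8 higher (14.9% and 16.8% over all genes), with a median of -0.08, where the median of the 417 tested genes of chromosome 15 was -0.05.

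Other genes of the adhesion pathway were taken from 8 lists of 165 genes, of which 164 were in the annotation and 92 were tested. Of these, 23 were higher and 20 lower in PGAM5 KD (46.7% passed, against 31.7% of all genes), with a median log2 fold change of 0.01, which was also the median of all genes. Both Hyal1 and Dab2 had an absolute log2 fold change above 1. The 23 higher include Spn and Lims2, which reached the filter only through their knockdown level.

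Among the other integrin subunits 3 of 20 were tested, with a median of 0.22. Of the 3, 2 were higher (66.7%, against 16.8% of all genes) and 0 lower (against 14.9%). Itgam, the αM chain (CD11b) that forms Mac-1 with β2, rose from 2.41 ± 0.271 to 4.46 ± 0.540 FPKM (SD, n = 3 each, log2 fold change 0.68, SE 0.10, limma adjusted p = 0.00322). Itgb5, a partner of αV, rose from 7.48 to 8.88 FPKM (0.22, limma adjusted p = 0.0448), a call kept in 7 of 17 alternatives. Itgb7, which can pair with α4, was at 14.1 and 15.1 FPKM and did not pass (limma adjusted p = 0.359). Among integrin ligands and counter-receptors 4 of 23 were tested, with a median of 0.35. Of the 4, 3 were higher (75%, against 16.8% of all genes) and 0 lower (against 14.9%). Spp1, the secreted ligand osteopontin of αV and α4 integrins and CD44, rose from 930 ± 27.6 to 1451 ± 23.3 FPKM (SD, n = 3 each, log2 fold change 0.64, SE 0.03, limma adjusted p = 2.54e-05). Icam2, another LFA-1 ligand, rose from 1.45 to 2.58 FPKM (0.56, limma adjusted p = 0.0452) and kept the call in 6 of 16 alternatives. Tgfb1, whose latent form binds αV integrins, rose from 64.8 to 71.8 FPKM (0.15, limma adjusted p = 0.0352) and kept it in 8 of 17. Leaving out 1 library ended the Itgb5 call in all cases but control replicate 3 (limma adjusted p up to 0.122), the Icam2 call in all but control replicate 2 (up to 0.119) and the Tgfb1 call in all but control replicate 1 (up to 0.104). The counts of 0 lower in both lists were also 0 at an unadjusted p under 0.05 and with voom. With so few genes tested, these counts do not show a direction for either list.

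Of the 17 other leukocyte adhesion receptors 5 were tested, with a median of -0.01. The shares called were 20% higher and 0% lower, against 16.8% and 14.9% of all genes. Of the 5, 0 were lower (0 at an unadjusted p under 0.05 and 0 with voom), although the libraries of Selplg, the selectin ligand PSGL-1, named after its values were seen, were all below control in PGAM5 KD (log2 fold change -0.19, limma adjusted p = 0.144). The 1 call, higher, was Spn, the sialomucin CD43, at 0.470 ± 0.0987 FPKM in control and 1.91 ± 0.164 FPKM in PGAM5 KD (SD, n = 3 each). Spn passed the filter only through its knockdown level, so its values are a description and no p is given. Of the integrin activators and inhibitors 20 of 27 were tested, 4 higher and 4 lower, with a median of 0.07. These are 20% each way, near the 16.8% higher and 14.9% lower of all genes. Fermt3, the kindlin of blood cells that activates β chains, rose from 98.0 to 122 FPKM (0.31, limma adjusted p = 0.000624). Rap1b, a GTPase of inside-out activation, rose from 148 to 177 FPKM (0.26, limma adjusted p = 0.00121), and Sipa1, which turns Rap off, rose as well (0.40, limma adjusted p = 0.000500). Rasgrp3, an exchange factor for Ras and Rap, fell from 50.5 to 37.6 FPKM (-0.42, limma adjusted p = 0.000187). Dok1, which competes with talin for β tails, fell (-0.31, limma adjusted p = 0.0184), a call lost without control replicate 1 (0.0574) or 2 (0.0611), while its value stayed between -0.43 and -0.25 in all alternatives. Filamin A, Flna, fell by 0.18 on the log2 scale (limma adjusted p = 0.00487) and did not pass after the exon length and GC correction (0.0759).

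Of the adhesion complex and signalling genes 30 of 36 were tested, 4 higher (13.3%, against 16.8% of all genes) and 11 lower (36.7%, against 14.9%), with a median of -0.07. Kinases of the Src family were among the genes that moved in each direction. Lyn rose from 55.2 to 64.7 FPKM (log2 fold change 0.23, limma adjusted p = 0.00255). Src fell from 4.15 to 2.20 FPKM (-0.68, limma adjusted p = 0.00924) and Fgr from 12.0 to 7.94 FPKM (-0.54, limma adjusted p = 0.000418). Tns3, a tensin that links β chains to actin, fell from 73.6 to 53.5 FPKM (-0.45, limma adjusted p = 9.72e-05). Lims2, a partner of integrin-linked kinase, was at 0.776 FPKM in control and 1.70 FPKM in PGAM5 KD. It is 1 of the 4 counted higher but passed the filter only through its knockdown level, so no p is given.

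Of the tetraspanins that bind integrins 9 of 11 were tested, 2 higher and 1 lower, with a median of 0.01. The 33.3% that passed is close to the 31.7% of all genes. Cd53 rose from 71.9 to 114 FPKM (log2 fold change 0.67, limma adjusted p = 0.000276) and Cd81 from 11.7 to 16.4 FPKM (0.46, limma adjusted p = 0.00114). Tspan14 fell by 0.21 on the log2 scale (limma adjusted p = 0.0164), a call lost without control replicate 3 (0.0566) or PGAM5 KD replicate 2 (0.0529). Of the CD44 partners and hyaluronan genes 9 of 17 were tested, 2 higher and 1 lower, with a median of 0.05 and the same share passed, 33.3%. Srgn, the proteoglycan serglycin that CD44 binds, rose from 57.3 to 95.6 FPKM (0.73, limma adjusted p = 2.54e-05). Cd74, the invariant chain that signals with CD44, rose from 113 to 176 FPKM (0.64, limma adjusted p = 2.45e-05). Hyal1, a lysosomal hyaluronidase, fell from 4.78 to 1.83 FPKM (-1.03, limma adjusted p = 0.000171). It shares 50.8% of its exon bases with Naa80 on the same strand, so its value is uncertain.

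Of the integrin trafficking genes 12 of 14 were tested, 5 higher (41.7%, against 16.8% of all genes) and 3 lower (25%, against 14.9%), with a median of 0.23. Dab2, an endocytic adaptor that binds β tails, rose from 4.70 ± 0.109 to 10.9 ± 0.659 FPKM (SD, n = 3 each, log2 fold change 1.06, SE 0.06, limma adjusted p = 4.82e-05). Rab11a, a GTPase of recycling endosomes, rose from 16.9 to 22.5 FPKM (0.39, limma adjusted p = 0.00984) and Commd3 from 21.5 to 27.3 FPKM (0.34, limma adjusted p = 0.00992). Numb, a clathrin adaptor for integrins, fell from 25.3 to 21.1 FPKM (-0.25, limma adjusted p = 0.00214). Gga3, an adaptor of β1 recycling, fell by 0.36 on the log2 scale (limma adjusted p = 0.0189). That call was lost without control replicate 2 (0.0628) or 3 (0.0635) and without the filter on low values (0.0519), while its value stayed between -0.46 and -0.29. Rab11fip1, which binds Rab11 in α5β1 recycling, fell by 0.27 (limma adjusted p = 0.00890) and did not pass after the exon length and GC correction (0.0630).

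**Figure D5:**
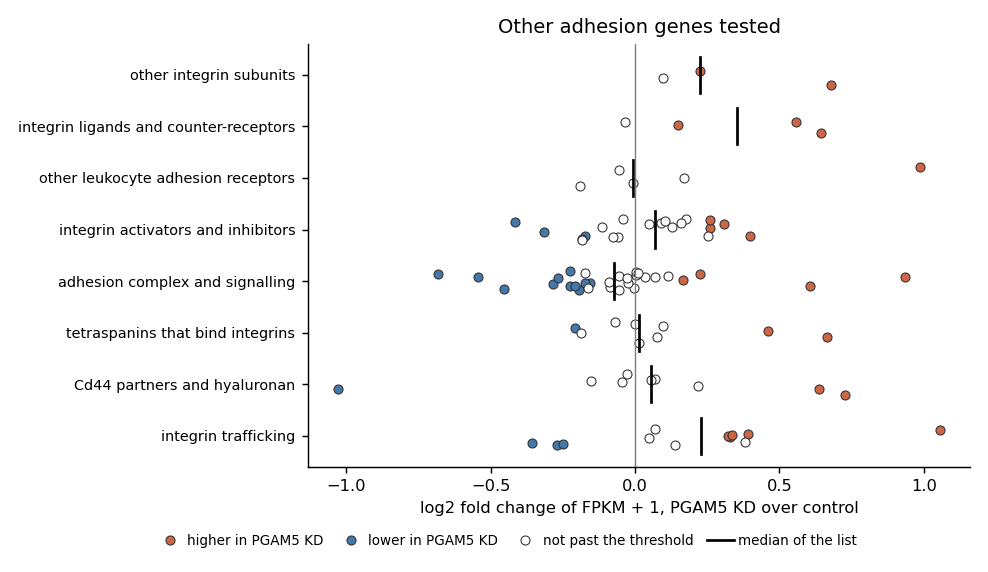
Log2 fold change of FPKM + 1 (PGAM5 KD over control) of each tested gene in 8 adhesion pathway lists, red where higher and blue where lower at an adjusted p under 0.05, open where not passed, with black bars at list medians. Medians run from -0.07 for the adhesion complex to 0.35 for ligands, and Hyal1 and Dab2 are the points furthest left and right at -1.03 and 1.06.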

How the data were processed

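Poly-A RNA-seq was measured in 6 iBMDM libraries, 3 control and 3 PGAM5 KD, grouped by their labels. The authors deposited FPKM, 1 table per library, scaled for depth and exon length and not otherwise between libraries. The submitters' processing notes name HISAT2 2.0.5, featureCounts 1.5.0-p3 and mm10. The annotation and the strand setting are not given in the sources used here, so overlapping genes are uncertain. Of 54532 gene IDs, 54495 matched GENCODE M21 (GRCm38) and 37 did not. FPKM times exon length gave whole fragments within 0.01 for 96.8% to 97.1% of values under 1000 fragments, from which depth was recovered (18163463 to 24388917 fragments). Replicates of a group differed by more than counting noise (chi-square per degree of freedom 5.06 to 8.92).

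The 10540 genes at a mean of 1 FPKM or more were fitted on the log2(FPKM + 1) scale by limma 3.58.1 under R 4.3.3 (lmFit, eBayes with trend, two-sided, Benjamini-Hochberg adjustment over all genes tested, threshold 0.05), without covariates. Fold changes on this scale understate those of low genes. Single values had exact two-sided permutation tests, whose smallest p is 0.1. The fit was also run on simulated data with log2 changes of 0.5 or more. Those are larger than the changes of the tested adhesion genes, so that run does not cover them, and its outcome is not given. The genes and lists were chosen with earlier results of these data known. Named were all 10 adhesion genes, Pgam5, the other integrin subunits at 1 FPKM or more, and up to 3 higher and 3 lower genes per list, those with the largest change, of which 1 is not reported here. Genes that share exon bases with a member were named too, and of the other genes resembling a member only Atf2, which had the highest level. The rest had at most 0.243 FPKM, among them the pseudogene Gm14699 (0 FPKM), which resembles Itgb2 (96.5% identity over 228 bases). A search for genes with the most similar profile applied only to members with an absolute log2 fold change above 0.5, and 0 qualified. Alternatives were another pseudocount, filter, scaling, weighting or trend, a replicate block, each library left out, and a correction for exon length and GC content. Promoters came from RefSeq (GRCm38.p6) and matched 7 of the 10 genes.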

Additional observations from a re-analysis of the deposited data

How the results depend on the processing

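Of the adhesion genes, 2 were higher in PGAM5 KD in the reported analysis. That number was 1 without the filter on low values, with quantile normalization, without the mean-variance trend, with the exon length and GC correction (chosen after the data were seen) and with the replicate block. It was 3 with voom, 0 with TPM, and between 0 and 2 with single libraries left out. The cause was not tested. The number lower was 3 under all 17 alternatives, over which the log2 fold change ranged from -0.45 to -0.24 for Itga4, from -0.29 to -0.19 for Itga5 and from -0.57 to -0.39 for Itgav. Pathway genes were 18 to 25 higher and 17 to 27 lower. Over all genes the calls moved as well, from 1083 to 1985 higher and from 1129 to 2268 lower, with 7092 to 20816 genes tested. The Pgam5 difference kept its direction and call in all 17, and the 4 ratios kept their direction in the alternatives run for them, except that Itgal over Itgb2 went from -0.07 to 0.04 on the log2(FPKM + 1) scale with the exon length and GC correction. Over all genes, 1771 of 10540 were higher and 1575 lower in the reported analysis. With TPM, where 12631 genes were at a mean of 1 TPM or more, 1083 were higher and 2268 lower. Libraries of the same replicate number did not deviate together (r = -0.02, 0.02 and -0.05), so the numbers were not taken as pairs. With them as a block 2652 genes passed in place of 3346, and of the adhesion genes Itgb2 lost its call (adjusted p = 0.0629). With 3 libraries a group the exact tests cannot pass 0.05, and Itgax and Itgb3 rest on few fragments.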
